A study of Sus scrofa with 8 samples.

Results

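The insulin-like growth factor (IGF) system was followed in the sow oviduct as all probe sets of the array whose single gene symbol was IGF1, IGF2, IGF1R, IGF2R, IGFBP2, IGFBP3, IGFBP4, IGFBP5, IGFBP6 or IGFBP7. The rule found 23 of the 24123 probe sets, and they covered 7 of the 10 listed genes. IGF2 held 13 of them, IGF1 held 3, IGF1R and IGFBP6 held 2 each, and IGF2R, IGFBP2 and IGFBP5 held 1 each. IGFBP3, IGFBP4 and IGFBP7 were not analysed here, because the annotation table used gave no probe set for them.

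RNA came from cells scraped from the oviduct mucosa of 4 weaned Landrace × Large White crossbred sows that had not yet ovulated. In each sow 1 oviduct had received flow-sorted X-bearing spermatozoa and the opposite oviduct Y-bearing spermatozoa, each pooled over several boars, and tissue was taken after 24 h. Both uterine horns had been stapled, so that spermatozoa could not pass from side to side. There was no oviduct without spermatozoa, so every value is of an inseminated oviduct. Each oviduct was measured on 1 Affymetrix Porcine array, which gave 4 arrays with X-spermatozoa (X1 to X4) and 4 with Y-spermatozoa (Y1 to Y4), and the number names the sow.

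IGF1 and IGF2 are secreted growth factors that bind the receptor tyrosine kinase IGF1R, which signals through the PI3K-AKT and RAS-MAPK pathways. IGF2R, the cation-independent mannose 6-phosphate receptor, takes up IGF2 for breakdown, and the IGF binding proteins hold both ligands in the extracellular space and control how much of them reaches the receptor. In the oviduct the system is known as a local source of growth factors for the epithelium and for gametes and early embryos.

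Values are the deposited linear signals, in arbitrary units, which the authors' software had scaled to a common trimmed mean of 100 on every array. Array medians lay between 38.7 and 41.2. Background was set for each array as the value that 95% of 63 probe sets for foreign reporter genes stayed under, which was 8.43 to 12.59. By this measure 64.9% of all probe sets were above background on all 8 arrays. Of the IGF system, 13 probe sets were above background on all 8 arrays, 8 on some and 2 on none. A level is compared only with that of the same probe set on other arrays, since the signals of different probe sets do not share a scale. The scraped cells held oviduct epithelium by their markers. OVGP1, the oviduct-specific glycoprotein, had a mean signal of 7159 with X-spermatozoa and 8674 with Y-spermatozoa, and the epithelial adhesion molecule EPCAM had 3126 and 3332. On the quantile normalized log2 scale used below, Y minus X was 0.02 for OVGP1 and -0.01 for EPCAM. The deposited OVGP1 signal was higher with Y-spermatozoa in every sow (6589, 8469, 7736 and 5841 on X1 to X4, and 9315, 8576, 9035 and 7769 on Y1 to Y4). Quantile normalization gives all arrays the same set of values, so a signal near the top keeps little more than its rank. The cells were not pure, as fibroblast and smooth muscle markers were also bright, such as VIM (mean signal 2690) and ACTA2 (2088), and varied between arrays. Shares of cell types cannot be read from these levels. Array Y1 had the highest ratios of 3′ to 5′ signal, a sign of RNA quality or labelling, at 8.35 for ACTB (5.46 to 6.61 on the other arrays) and 6.0 for GAPDH (3.83 to 4.58). Spiked hybridisation controls had a mean log2 signal of 9.65 to 9.82 on the arrays with X-spermatozoa and of 9.82 to 10.06 on those with Y-spermatozoa.

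The first question was whether any gene of the IGF system differed between the oviducts with Y-spermatozoa and those with X-spermatozoa. Differences are Y minus X on the log2 scale of quantile normalized signals, with the standard error (SE), p and 95% interval of limma over all 23999 probe sets that are not array controls. No member passed at an adjusted p of 0.05 (lowest adjusted p = 1), and neither did any of the 23999 probe sets. At an unadjusted p of 0.05, 1 of the 23 member probe sets passed, against 3.56% of all probe sets (1.62% higher and 1.94% lower with Y-spermatozoa). This was a dim IGF2 probe set, described with its gene. The members were split almost evenly by direction, 12 higher and 11 lower, with a median difference of 0.03 beside 0.00 for all probe sets. For none of the 23 did the X- and Y-spermatozoa signals separate into ranges that do not overlap, a pattern found for 2.07% of all probe sets on the normalized scale. Among the 13 members above background on all arrays, 7 were higher and 6 lower, none was called (2.23% of all such probe sets were), and SEs ran from 0.16 to 0.54. Their 95% intervals reached from 0.37 to 1.26 to either side of the estimate. With the sow as a block, which uses the pairing, SEs ran from 0.10 for IGFBP2 to 0.61 for an IGF2 probe set, and 0 of the 13 were called. Intervals given with each gene are those of the fit without the block.

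**Figure D1:**
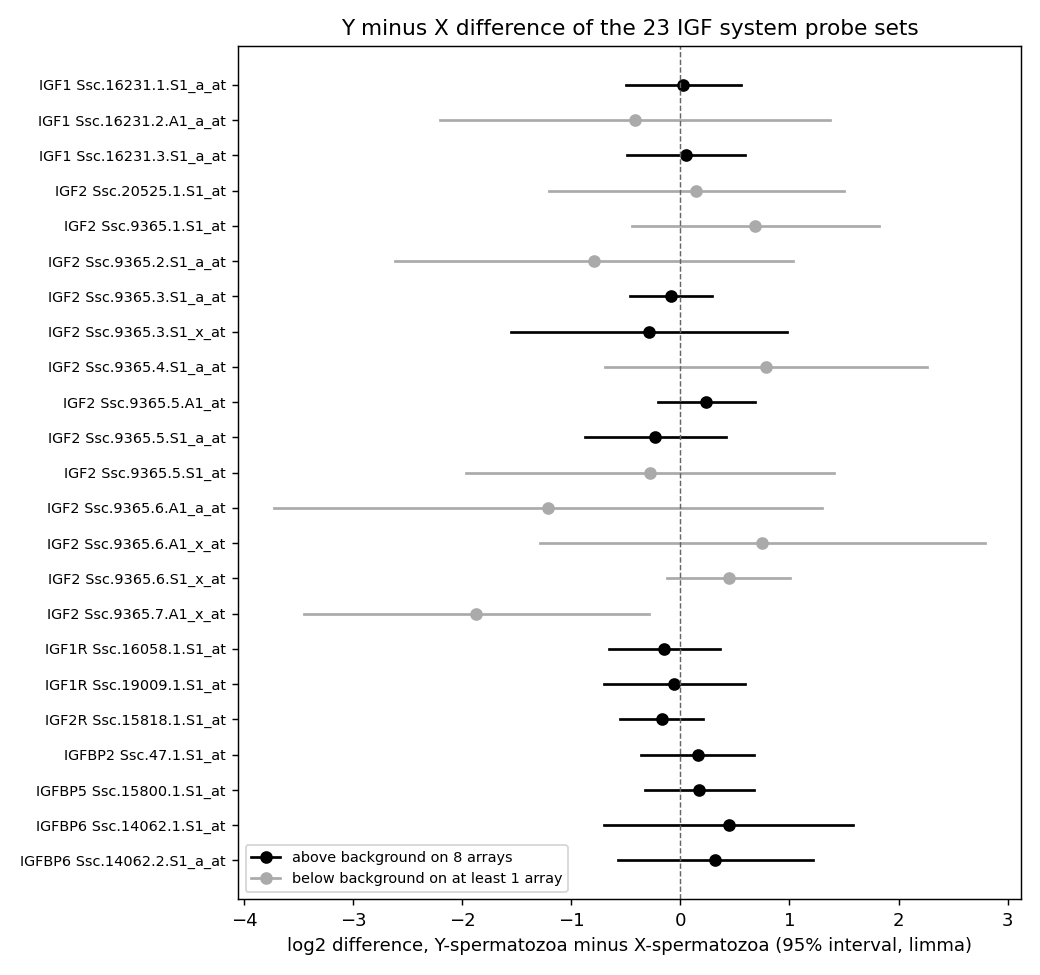
Log2 difference between oviducts with Y- and X-spermatozoa (horizontal axis) for the 23 IGF system probe sets (rows), with points for the limma estimate and bars for its 95% interval over 4 arrays per group. The 13 black points, above background on 8 arrays, all have intervals that include 0, and the 1 interval that excludes 0 belongs to the dim IGF2 probe set Ssc.9365.7.A1_x_at.

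The ligand IGF1, which stimulates growth and survival of many cell types, was measured well by a pair of probe sets. The brighter, Ssc.16231.3.S1_a_at, had signals of 69.3, 88.0, 108.8 and 116.5 on X1 to X4 and of 76.7, 136.0, 86.8 and 93.9 on Y1 to Y4. The groups overlapped, with means of 95.7 ± 21.3 and 98.4 ± 26.1 (SD, n = 4 each), and Y2 was the highest array. The difference was 0.05 (SE 0.23, 95% interval -0.49 to 0.59). The other probe set, Ssc.16231.1.S1_a_at, read 38.4, 55.3, 65.8 and 68.1 with X-spermatozoa and 51.7, 57.6, 45.4 and 72.3 with Y-spermatozoa. Its difference was 0.03 (SE 0.23, interval -0.50 to 0.55), and by both probe sets IGF1 was higher with Y-spermatozoa in some sows and lower in others. The third IGF1 probe set was dim, above background on 5 arrays, and ranged from 3.8 to 26.0.

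IGF1 signal was lowest on the 3 arrays with the least summed stromal marker signal, but the order of the other arrays was not shared. Both bright IGF1 probe sets had their 3 lowest values on X1, Y1 and Y3, and these were also the 3 arrays with the lowest summed signal of 6 fibroblast markers and of 6 smooth muscle markers. The fibroblast sum (COL1A2, COL3A1, DCN, LUM, VIM and FBLN1) was 5352, 6644, 5971 and 5635 on X1 to X4 and 4217, 8219, 4933 and 7959 on Y1 to Y4. The smooth muscle sum (ACTA2, TAGLN, DES, CNN1, MYLK and ACTG2) was 2462, 7624, 6677 and 4246 with X-spermatozoa and 1549, 5609, 2045 and 6728 with Y-spermatozoa, a 4.92-fold range. Only these 2 of the 13 member probe sets above background shared all 3 lowest arrays with the stromal sums. Among the other arrays, X4 and Y4 read 116.5 and 93.9 by the brighter IGF1 probe set and 68.1 and 72.3 by the other. Single markers did not all follow the sums. LUM, FBLN1 and the smooth muscle markers except MYLK had the same 3 lowest arrays. VIM and COL3A1 had X3 among their 3 lowest, and COL1A2, DCN and MYLK had X4. VIM was 2926 on X1 and 1993 on X3. Y1 was also the array with the highest 3′ to 5′ ratios. The part of stroma or of RNA quality in the IGF1 signal was not tested. In such bulk samples, fewer cells of a type and less RNA per cell cannot be told apart.

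**Figure D2:**
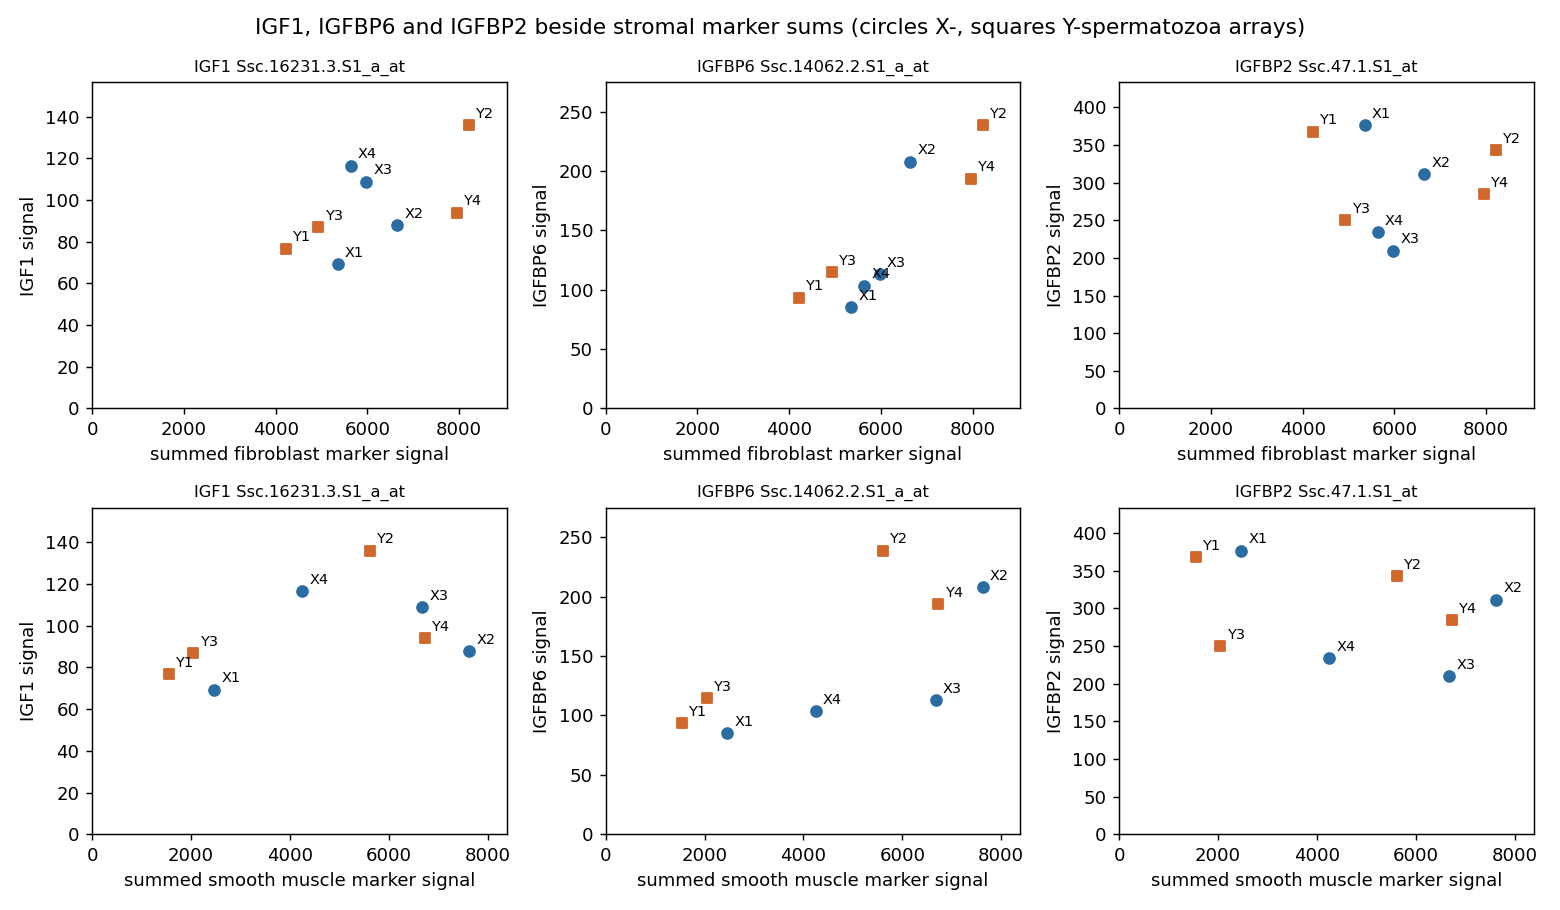
Signal of IGF1, IGFBP6 and IGFBP2 (columns, vertical axes, linear array units) against the summed signal of fibroblast markers (top row) and smooth muscle markers (bottom row), with 1 labelled point per array, circles for X- and squares for Y-spermatozoa. IGF1 was lowest on X1, Y1 and Y3, the arrays with the smallest sums. IGFBP6 was highest on X2, Y2 and Y4, which had the largest fibroblast sums and also the largest endothelial sums, not plotted here. The highest IGFBP2 signal, 376.9 on X1, lay at a low sum.

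IGF2, the ligand with its own clearance receptor and an imprinted gene expressed from the paternal allele in most tissues, was covered by 13 probe sets that did not read alike. Suffixes tell part of their design, as probe sets ending in _a_at detect several transcripts of a gene and those ending in _x_at hold probes that can also match other sequences. Several probe sets may therefore read the same RNA and are not independent measurements. The brightest, Ssc.9365.3.S1_a_at, had signals of 80.8, 85.3, 99.4 and 62.7 on X1 to X4 and of 79.5, 67.2, 86.8 and 70.1 on Y1 to Y4. The groups overlapped, with a difference of -0.09 (SE 0.16, interval -0.46 to 0.28), which corresponds to a Y over X ratio of 0.94 (0.73 to 1.22).

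A second probe set of the same design group, Ssc.9365.3.S1_x_at, varied far more from array to array. It read 57.2, 64.7, 41.7 and 41.8 with X-spermatozoa and 37.4, 12.6, 72.4 and 74.9 with Y-spermatozoa. The Y-spermatozoa arrays spanned the whole range, from 12.6 on Y2 to 74.9 on Y4, with a mean of 49.3 ± 29.9 (SD, n = 4) against 51.4 ± 11.5. Its difference was -0.29 with the widest interval among the members above background (SE 0.54, -1.56 to 0.97). In sow 2 the 2 probe sets differed by -0.33 and -2.27 between sperm types, while in sow 3 the first was -0.17 and the second 0.83.

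The last pair of IGF2 probe sets above background on all arrays was dimmer. Ssc.9365.5.S1_a_at read 33.4, 27.5, 16 and 33.2 on X1 to X4 and 26.2, 16.5, 25.2 and 20.8 on Y1 to Y4 (difference -0.23, SE 0.28). Ssc.9365.5.A1_at read 14.7, 21.5, 15.7 and 17.5 and then 20.7, 18.2, 15.2 and 24.0 (difference 0.24, SE 0.19). These 4 probe sets thus gave differences on both sides of 0, none of which exceeded the spread between arrays.

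The other 9 IGF2 probe sets were not above background on all arrays, with mean signals of 1.3 to 13.1. Their differences ran from -1.87 to 0.79, with SEs of 0.24 to 1.08, and 5 were higher and 4 lower with Y-spermatozoa. The 1 member called at an unadjusted p of 0.05 was among them. Ssc.9365.7.A1_x_at read 12.9, 12.5, 5.7 and 9.7 with X-spermatozoa and 1.2, 5.7, 0.8 and 5.7 with Y-spermatozoa, lower with Y in 4 of 4 sows. It was above background on 2 X-spermatozoa arrays and on 0 Y-spermatozoa arrays, so its difference has no firm size. The estimate was -1.87 on the log2 scale (SE 0.68, adjusted p = 1) with values floored at 1, where Y3 lay, and -0.41 with a pseudocount of 16. It no longer passed the unadjusted threshold when any of X1, X2, X4, Y1 or Y3 was left out (estimates -1.73, -1.75, -1.87, -1.52 and -1.41). Nor did it pass with the hybridisation controls as a covariate (difference -0.40, SE 1.06). Those controls ran with sperm type, so that fit can hardly separate them from it. With the sow as a block a second dim probe set, Ssc.9365.6.S1_x_at, also passed the unadjusted threshold (adjusted p = 0.895), which made 2 of 23 against 5.09% of all probe sets. Its signals of 3.0 to 6.8 were below background on every array.

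**Figure D3:**
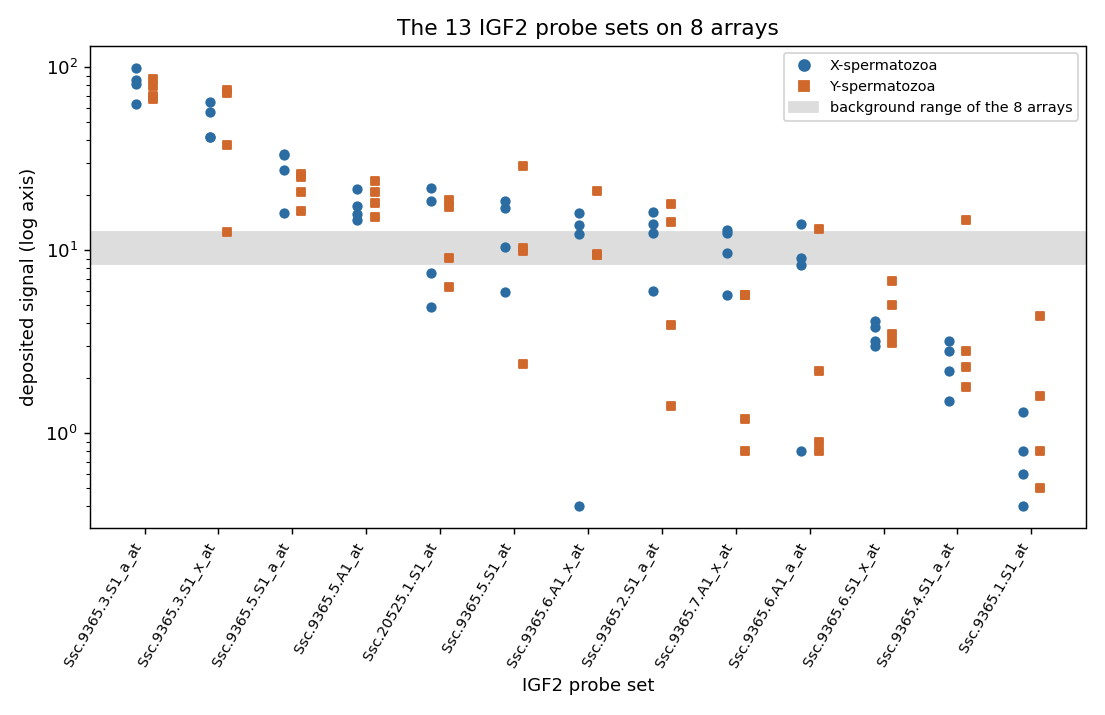
Deposited signal (vertical log axis) of the 13 IGF2 probe sets (horizontal axis, brightest first) on the 8 arrays, circles for X- and squares for Y-spermatozoa, with the grey band showing the background levels of the arrays, 8.43 to 12.59. Only the 4 probe sets on the left stay above the background of their own array throughout, and Ssc.9365.3.S1_x_at spreads from 12.6 to 74.9 with Y-spermatozoa.

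IGF1R, the signalling receptor for both ligands, was measured by 2 probe sets that followed the sow more than the sperm type. Ssc.19009.1.S1_at read 91.1, 47.7, 66.8 and 61.5 on X1 to X4 and 74.9, 39.1, 81.7 and 60.2 on Y1 to Y4. Ssc.16058.1.S1_at read 51.6, 33.0, 55.4 and 39.1 and then 37.9, 31.6, 53.1 and 34.6. Both oviducts of sow 2 were the lowest arrays of both probe sets. Between sperm types the differences were -0.06 (SE 0.28, interval -0.70 to 0.59) and -0.15 (SE 0.22, interval -0.66 to 0.36). With the sow as a block the SEs were 0.14 and 0.11. The second was lower with Y-spermatozoa in 4 of 4 sows, a direction shared by 6.71% of all probe sets, although by only 0.01 in sow 2 and 0.02 in sow 3. Of the members above background it was the only one lower in every sow.

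IGF2R, which clears IGF2 and sorts lysosomal enzymes, had the narrowest range of sow means among the members above background, 0.30 on the log2 scale. Its probe set read 31.7, 33.3, 32.0 and 28.4 with X-spermatozoa and 20.7, 24.6, 33.3 and 31.4 with Y-spermatozoa. The low Y-spermatozoa values came from sows 1 and 2, where the differences were -0.58 and -0.38, while sows 3 and 4 gave 0.11 and 0.16. The difference over all sows was -0.17 (SE 0.16, interval -0.55 to 0.21).

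IGFBP2, a secreted carrier of both ligands, followed the sow on both sides. It read 376.9, 311.8, 209.8 and 234.1 on X1 to X4 and 368.0, 343.2, 250.4 and 284.6 on Y1 to Y4. Both arrays of sows 1 and 2 lay above both arrays of sows 3 and 4, and the means of 283 ± 76.1 with X-spermatozoa and 312 ± 53.7 with Y-spermatozoa overlapped widely (SD, n = 4 each). The difference between sperm types was 0.16 (SE 0.22, and 0.10 with the sow as a block), a ratio of 1.12 (95% interval 0.78 to 1.60).

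IGFBP5, a binding protein that also attaches to the extracellular matrix, read 43.2, 39.5, 61.1 and 32.2 with X-spermatozoa and 52.2, 47.4, 54.8 and 37.3 with Y-spermatozoa. The difference was 0.17 (SE 0.22, ratio 1.13, interval 0.80 to 1.60). Sow 3 was highest and sow 4 lowest on both sides. IGFBP2 and IGFBP5 lie next to each other, with 0 other genes listed between them in the RefSeq gene table of assembly Sscrofa11.1. Their order over sows was not the same, as sow 3 had the lowest IGFBP2 and the highest IGFBP5.

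IGFBP6, which binds IGF2 with a marked preference over IGF1, varied most between sows among the members above background. Ssc.14062.2.S1_a_at read 85.3, 207.8, 113.0 and 103.4 on X1 to X4 and 93.4, 238.8, 114.7 and 193.5 on Y1 to Y4. Ssc.14062.1.S1_at read 29.9, 95.7, 49.1 and 36.0 and then 33.4, 99.4, 47.4 and 101.6. Sow 2 was high and sow 1 low on both sides and by both probe sets, and in sow 4 only the oviduct with Y-spermatozoa was high. The differences between sperm types were 0.32 (SE 0.38, interval -0.57 to 1.21) and 0.44 (SE 0.49, interval -0.70 to 1.59), the latter being the largest among members above background. The first probe set was higher on the Y side of all 4 sows, against 6.44% of all probe sets, by 0.14, 0.20, 0.04 and 0.90 in sows 1 to 4. The second gave 0.19, 0.05, -0.01 and 1.54, so that most of both differences came from sow 4. Leaving out an array moved them both ways, to 0.59 and 0.79 without X2, 0.54 and 0.75 without Y1, 0.16 and 0.22 without X1, 0.09 and 0.23 without Y2, and 0.20 and 0.21 without Y4. Without both arrays of sow 4, with the remaining sows as blocks, they were 0.13 and 0.08. In sow 4 the fibroblast sum was 5635 with X-spermatozoa and 7959 with Y-spermatozoa, and the smooth muscle sum was 4246 and 6728. The endothelial sum was 243 on X4 and 345 on Y4. Its lowest arrays were X1, X4 and Y1, as for both IGFBP6 probe sets, and the fibroblast sum shared 2 of these. The part of these cells in the IGFBP6 difference was not tested.

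**Figure D4:**
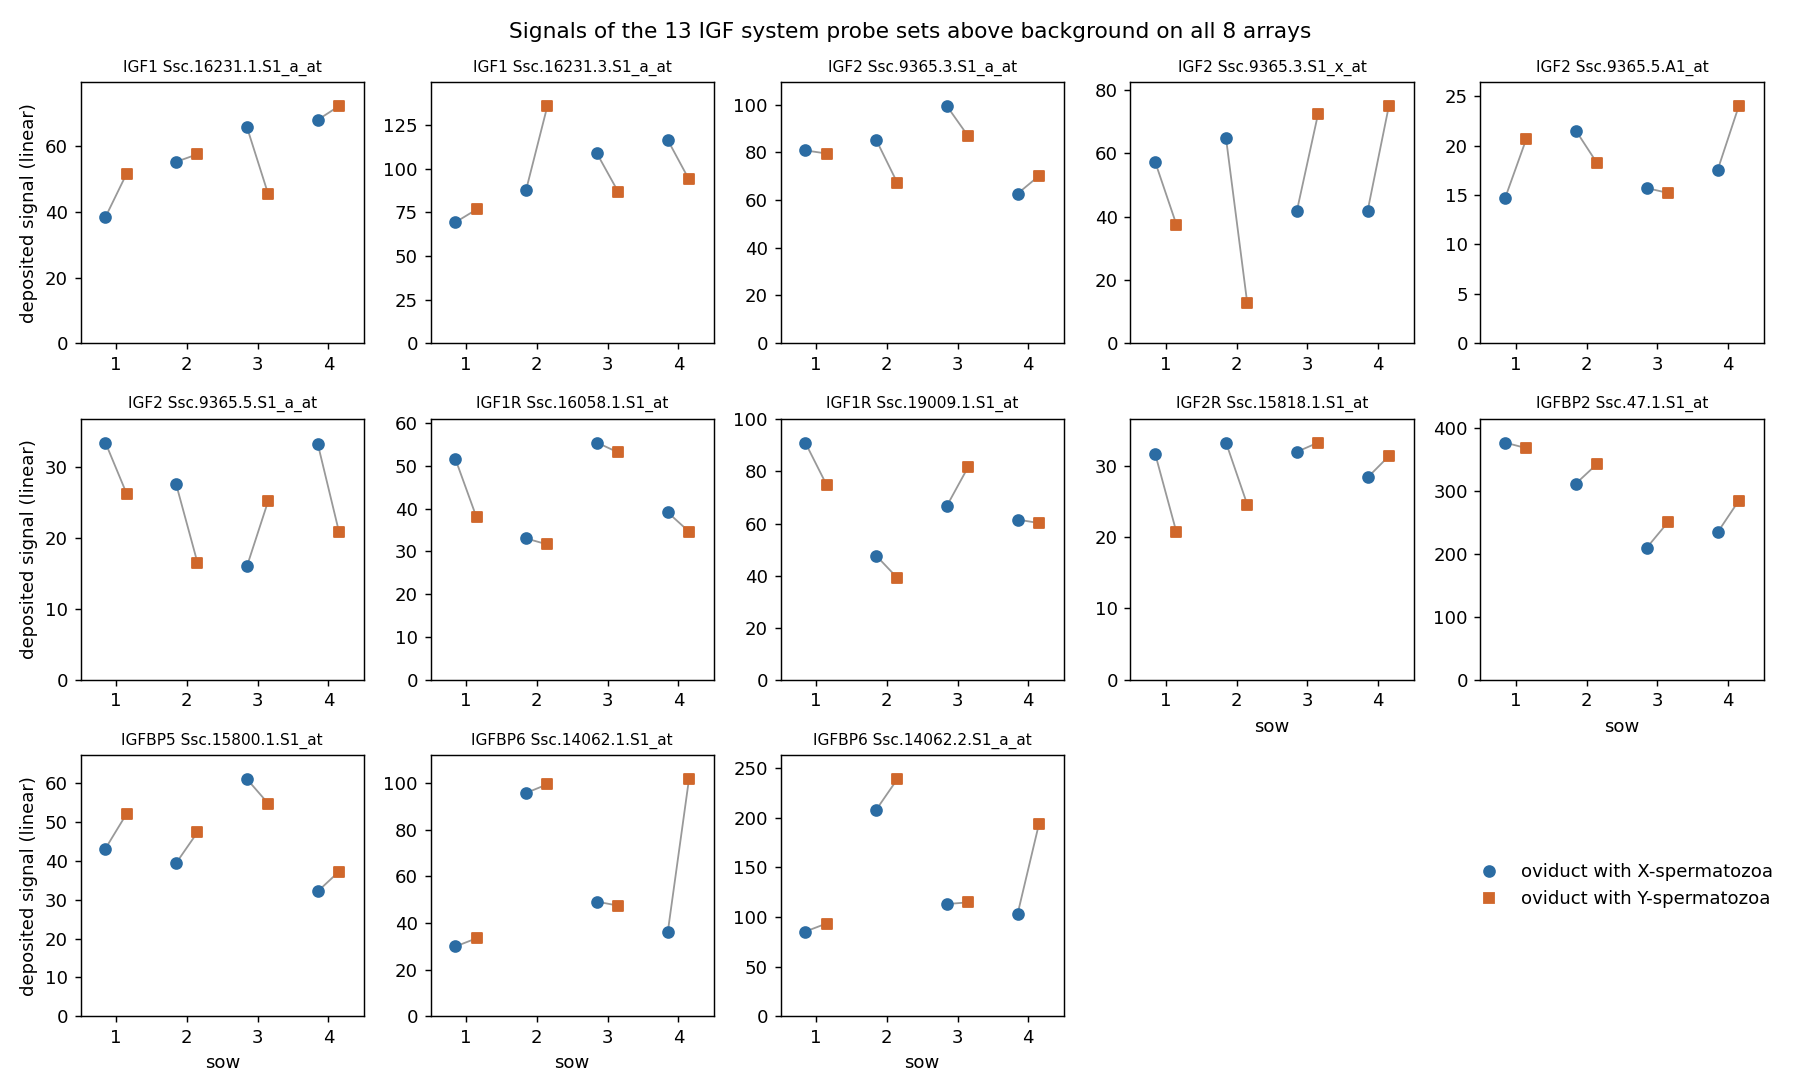
Deposited signal (vertical axes, linear units starting at 0) of the 13 IGF system probe sets above background on 8 arrays, by sow (horizontal axes), with circles for the oviduct with X-spermatozoa, squares for that with Y-spermatozoa and a line joining the 2 oviducts of a sow. IGFBP2, IGF1R and IGFBP6 move more between sows than between the 2 oviducts of most sows, with the Y4 array of IGFBP6 as the exception.

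The second question was whether the members differed between animals, which the 2 arrays of each sow allowed to be tested. The sow term is limma's F test of the 4 sows with sperm type in the model. At an unadjusted p of 0.05 it called 5 of the 23 member probe sets, or 21.7%, against 14.2% of all probe sets. All 5 were among the 13 above background on all arrays, or 38.5%, against 13.8% of all such probe sets. No member and none of the 23999 probe sets passed at an adjusted p of 0.05. Simulated sow effects of 1 or 2 on the log2 scale, placed in 200 probe sets and in 1 sow, did not pass it either. That setting differs from these data, where 14.2% of all probe sets passed unadjusted. The simulation therefore does not show what the adjusted threshold could find here.

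The 5 were IGFBP2, IGFBP6 by Ssc.14062.2.S1_a_at, both IGF1R probe sets and IGFBP5. Their adjusted p-values were 0.289 for IGFBP2, 0.293 for IGFBP6, 0.308 and 0.323 for IGF1R and 0.334 for IGFBP5. Between the highest and the lowest sow, IGFBP2 differed by 0.71 on the log2 scale (1.63-fold), IGFBP5 by 0.73 (1.65-fold) and IGF1R by 0.92 and 0.70. IGFBP6 differed by 1.32 (2.50-fold), and by 1.63 (3.09-fold) by its other probe set, which passed the unadjusted threshold only in some alternatives, such as a pseudocount of 16. Sow order was not shared, as IGFBP2 was highest in sow 1, IGFBP5 in sow 3 and IGFBP6 in sow 2, where IGF1R was lowest. The ligands and IGF2R did not pass, with adjusted p-values of 0.491 or more for the probe sets above background. These calls did not hold when arrays were left out. With any 1 array left out, 0 to 3 of the 5 still passed, 0 without X2 or Y2, 1 without X1, 2 without X3, X4, Y1 or Y4, and 3 without Y3. With both arrays of a sow left out, 2 to 3 passed. Animals and anything handled animal by animal cannot be told apart.

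The spread within sows sets the scale for these values. For 10 of the 13 probe sets above background, the absolute difference between the 2 oviducts of a sow was on average smaller than that between arrays of different sows. This was so for 71.2% of all probe sets above background. The median over the 13 was 0.31 within sows and 0.41 between sows, and over all probe sets above background 0.21 and 0.28. The median range of the 4 sow means was 0.70 on the log2 scale for these 13, beside 0.41 for all probe sets above background.

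**Figure D5:**
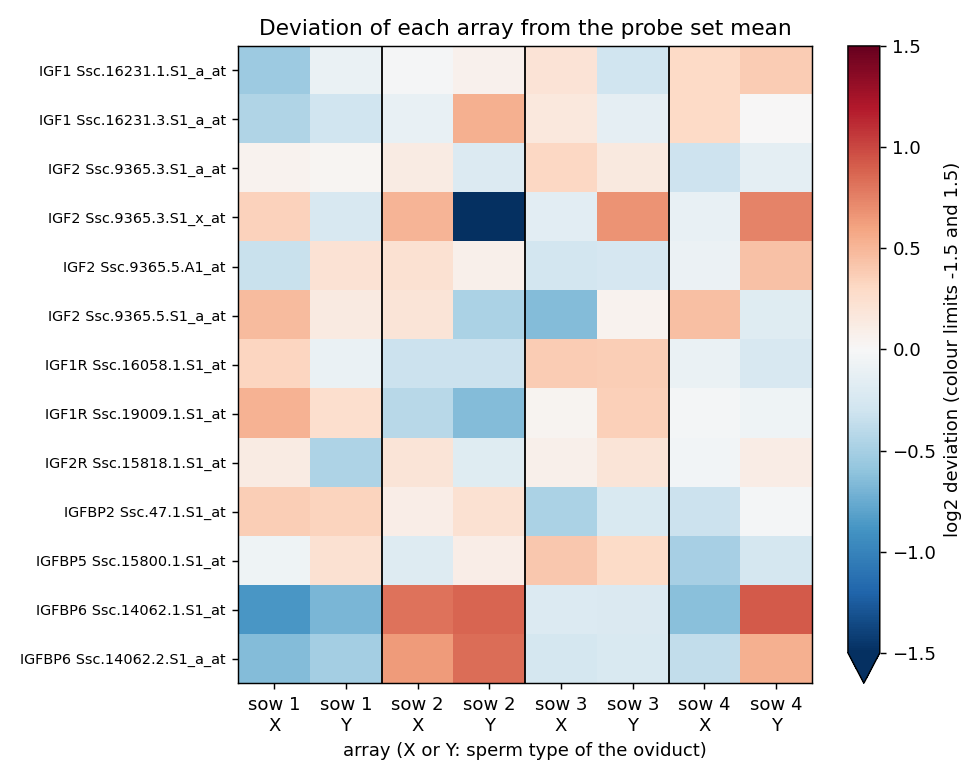
Deviation of each array from its probe set's mean (colour, log2 units, limited to -1.5 and 1.5) for the 13 IGF system probe sets above background on 8 arrays (rows) and the 8 arrays ordered by sow (columns). Both columns of each sow lie on the same side of the mean for IGFBP2 and for IGF1R by Ssc.19009.1.S1_at, the IGFBP6 rows are high in both oviducts of sow 2 and in sow 4 only with Y-spermatozoa, and the IGF2 probe set Ssc.9365.3.S1_x_at stands out as low on Y2.

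Genes around the IGF system were read from lists of 69 ligand partners, proteases, sorting factors and signalling proteins, of which 37 had a probe set. None was called between sperm types at an unadjusted p of 0.05 in limma, with or without the sow as a block, beside 3.56% and 5.09% of all probe sets. Of the 37, 23 were higher, 13 lower and 1 at 0 with Y-spermatozoa, with a median difference of 0.03. For the 27 above background on all arrays, differences ran from -0.37 to 0.27. The gene nearest to the threshold was MAPK3, the ERK1 kinase of the RAS-MAPK branch (mean signal 103 ± 19.1 with X-spermatozoa and 79.0 ± 13 with Y-spermatozoa, difference -0.37, SE 0.18), which lies outside the rule for named genes and was chosen after its value was seen.

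The insulin receptor INSR, which can pair with IGF1R in hybrid receptors and binds IGF2 in one of its forms, read 27.1 ± 6.89 with X-spermatozoa and 31.1 ± 6.46 with Y-spermatozoa (SD, n = 4 each), with a difference of 0.27 (SE 0.25). PAPPA, the protease that releases IGFs by cutting binding proteins, was above background on 7 arrays and differed by -0.15 (SE 0.45). The growth hormone receptor GHR, above background on 6 arrays, differed by 0.54 (SE 0.56). IGFBP1, the binding protein regulated by insulin, was above background on 3 arrays, and the adaptor IRS1 on 1. IRS2 and IGF2BP2 were not analysed here. Sorting factors of the mannose 6-phosphate route, which IGF2R shares, were all 7 above background on every array, and none was called between sperm types.

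Between sows, 4 of the 37 genes passed at an unadjusted p of 0.05, or 10.8%, against 14.2% of all probe sets, and 0 passed after adjustment. They were STC1, an inhibitor of PAPPA proteases (adjusted p = 0.190), the transcription factor FOXO3, which was above background on only 2 arrays (adjusted p = 0.213), INSR (adjusted p = 0.329) and GNPTAB, which makes the mannose 6-phosphate tag (adjusted p = 0.350). The sow means of STC1 spanned 1.46 on the log2 scale.

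Markers of other cells also differed between arrays. All 6 smooth muscle markers had lower estimates with Y-spermatozoa (median -0.38, with -0.82 for ACTG2 and -0.62 for ACTA2), the endothelial median was 0.25 and the red cell median 0.44, and none of the smooth muscle or endothelial markers was called. Of the 34 markers measured in 7 lists, 2 were called in limma at an unadjusted p of 0.05, beside 3.56% of all probe sets. Both were higher with Y-spermatozoa: the leukocyte marker PTPRC (difference 0.78, SE 0.26), above background on only 2 arrays, and the red cell marker HBM (difference 1.01, SE 0.34). Their adjusted p was 1. With the sow as a block 4 were called, with VWF and ALAS2 added, beside 5.09% of all probe sets. The summed secretory epithelium signal was 13655 to 16238 with X-spermatozoa and 16385 to 17076 with Y-spermatozoa on the deposited scale. These ranges did not overlap but nearly met. OVGP1 made the largest part of the sum (mean signal 7916). On the normalized scale, which keeps little more than the rank of so bright a probe set, its difference was 0.02 (SE 0.12). On that scale 0 of the 6 genes was called. The ciliated sum was 939 to 1508, the endothelial sum 216 to 419, the leukocyte sum 106 to 179 and the red cell sum 233 to 279 over the 8 arrays. The part of these cells in the members' values was not tested.

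Probe sets whose pattern over the 8 arrays was most like a member's were named by Pearson's r among 5967 brighter probe sets with a single symbol. For IGF1 they were TIMM22 (r = 0.93), PEG10 (0.90) and RAI14 (0.90). For IGF2, by its brightest probe set, they were LRRC51 (0.95), GIT1 (0.94) and UIMC1 (0.93). For IGFBP2 they were TAF11 (0.95), WIPI2 (0.95) and TMEM98 (0.94). These are descriptions over 8 arrays from 4 sows, in which arrays of a sow share an animal and all share a scaling, and the highest of 5967 values is high by construction.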

How the data were processed

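Scraped oviduct cells of 4 sows were measured on 8 Affymetrix Porcine arrays, 1 per oviduct, and all were kept. The authors deposited a linear intensity for each probe set and array, computed by MAS5 version 5.1 (per the submitters' processing notes) and scaled to a common trimmed mean. The methods of the study describe RMA values and detection calls, which were not used here. Precision is limited by how few arrays there were. The genome build is not given in the sources used here, and no sequence was used.

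After quantile normalization, anything below 1 was raised to 1 before log2 was taken. Without the 124 control probe sets of the array, 23999 remained, 64 reporters among them. X- and Y-spermatozoa arrays, grouped by the labels, were compared with limma 3.58.1 in R 4.3.3 (lmFit and eBayes, two-sided, no pairing), with Benjamini-Hochberg adjustment over all of them. The sow term was the moderated F test of sow with sperm type in the model. Each sow gave both oviducts and the labels number the replicates alike, so the numbers pair the arrays. Within a sow, the deviations of both arrays from their group mean had correlations of 0.13 to 0.19, and across sows of -0.11 to 0.02. Alternatives were the sow as a block or random block, centring on the median, the deposited scaling, a pseudocount of 16, only the 11999 brighter probe sets, a plain t-test without moderation, the mean hybridisation control signal as covariate, and leave-one-out fits over arrays and sows.

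Gene symbols came from the platform annotation, in which 10140 probe sets had 1 symbol, 157 several and 13826 none. Of 10297 annotated probe sets, 9989 matched the RefSeq gene table of assembly Sscrofa11.1, used for names and neighbours. The text describes every measured member gene by each of its probe sets above background on all arrays, and names only some of the dimmer IGF2 probe sets. By rule it also names the pathway genes that passed the unadjusted threshold, INSR, IGFBP1, PAPPA, IRS1, IRS2, GHR and IGF2BP2. The called markers and the 3 most alike genes of IGF1, IGF2 and the brightest IGFBP probe set are named too. Pathway and marker genes were taken by their brightest probe set. The members and gene lists were chosen with earlier results of these data known. The fits were tested on simulated data. Plots used matplotlib 3.10.9 under Python 3.11.15.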

Additional observations from a re-analysis of the deposited data

Results flagged for a closer look

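In each group of 4 arrays, the gap between an extreme array and its neighbour was compared with the range of the group (Dixon's ratio, against its 95% critical value for 4 samples). Of 46 groups, 23 probe sets in each of the 2 sperm types, 5 were past that value, where chance gives about 1 in 20. All 5 belonged to probe sets that were not above background on all arrays. For the third IGF1 probe set, Ssc.16231.2.A1_a_at, X4 was low at a signal of 3.8, with a ratio of 0.913. For IGF2, X3 stood above the other X-spermatozoa arrays by Ssc.9365.1.S1_at (signal 1.3, ratio 1), where the other arrays were at the floor. Y1 stood above the other Y-spermatozoa arrays by Ssc.9365.4.S1_a_at (signal 14.6, ratio 0.830). By Ssc.9365.6.A1_x_at, X2 was low at 0.4 (ratio 0.913) and Y1 high at 21.1 (ratio 0.947). No member above background on all arrays was past it.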

How the results depend on the processing

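Of the member probe sets, 1 was called between sperm types in the chosen fit, 2 with the sow as a block, and 0 to 2 when arrays or sows were left out. Among the brighter probe sets alone 0 were called, as the 1 called member, Ssc.9365.7.A1_x_at, was too dim to be one of them. Over all probe sets, 855 were called, against 1459 with the sow as a random block and 311 among the brighter ones. The sow term called 5 member probe sets, 8 with a pseudocount of 16, and 1 to 5 with arrays or sows left out. Over all probe sets the sow term called 3406, against 4803 with a pseudocount of 16, so the rise was not confined to the members. With both arrays of a sow left out it called 2671 to 3023 of all probe sets. Among the brighter probe sets alone it called 6 members and 3530 of all. Pathway genes called between sperm types were 0, and 0 to 2 with an array left out. Called markers were 2, against 4 with the sow as a block and 1 to 2 with an array left out. Among the brighter probe sets, which held neither PTPRC nor HBM, 0 were called. The block changed no other call of a member or a pathway gene. Hybridisation control signals ran with sperm type, at 9.65 to 9.82 with X-spermatozoa and 9.82 to 10.06 with Y-spermatozoa. A fit with them as a covariate can therefore hardly separate them from sperm type. Its SEs were larger, such as 0.42 against 0.23 for IGF1 by Ssc.16231.1.S1_a_at. With the hybridisation controls as a covariate, IGF1 by Ssc.16231.1.S1_a_at turned to -0.030 and IGF2 by Ssc.9365.5.A1_at to -0.034, while IGF1 by Ssc.16231.3.S1_a_at moved to 0.41, IGF2 by Ssc.9365.3.S1_a_at, Ssc.9365.3.S1_x_at and Ssc.9365.5.S1_a_at to -0.23, -1.34 and -0.60, IGF1R by Ssc.19009.1.S1_at and Ssc.16058.1.S1_at to -0.24 and -0.036, IGF2R to -0.075, and IGFBP6 by Ssc.14062.1.S1_at and Ssc.14062.2.S1_a_at to 0.74 and 0.63, none of them called. With arrays or sows left out, differences that turned direction ranged from -0.15 to 0.20 for IGF1 by Ssc.16231.1.S1_a_at, -0.15 to 0.17 by Ssc.16231.3.S1_a_at, -0.20 to 0.15 for IGF1R by Ssc.19009.1.S1_at, -0.21 to 0.0018 for IGF2 by Ssc.9365.3.S1_a_at and -0.67 to 0.37 by Ssc.9365.3.S1_x_at. The causes were not tested. Of 108 log2 differences recomputed with all arrays, 105 kept their direction and their side of the threshold, the exceptions being the 2 reversals with the hybridisation covariate and the call of IGF2 by Ssc.9365.7.A1_x_at, lost with it (-0.40). With either block, the plain t-test or the brighter probe sets alone, the estimate is the same by design. There only the side of the threshold could change. Of 168 differences with arrays or sows left out, 13 turned direction. Signal over background limits the reading of the 10 member probe sets that were not above background on all arrays.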
